A study of Homo sapiens with 6 samples.

Results

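The mitochondrial genome of human cells carries 37 genes: 13 mRNAs for subunits of the respiratory chain and of ATP synthase, 2 rRNAs of the mitochondrial ribosome and 22 tRNAs. All 37 were taken by their position on chrM, the mitochondrial chromosome of 16569 bases, out of 60640 gene identifiers in the deposited tables. Polyadenylated RNA had been sequenced from MOLT-4, an established human line of acute lymphoblastic leukemia of T cells (T-ALL). There were 2 groups of 3 libraries, and both were grown in RPMI1640 with 10% FBS. The wild type group was the control of a CRISPR knockout. The group labelled IK-KO came from MOLT-4 cells in which CRISPR-Cas had targeted IKZF1, the gene of the lymphoid DNA-binding protein IKAROS. The comparison asks how transcripts differ between T-ALL cells edited in IKZF1 and their control.

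The edited and control cells were bought from a vendor. The study's supplement states that the knockout was checked by PCR and western blot. It shows IKAROS protein blots of wild type cells and a pair of knockout clones, but the labels name no clone. Other differences between the edited cells and the control therefore cannot be told apart from the loss of IKAROS. Whether the replicates were separate cultures is not stated in the labels, so p-values measure only the spread between these libraries, which may be technical. IKZF1 itself measured 134, 124 and 105 FPKM (fragments per kilobase of transcript, scaled to the mapped fragments of the library) in wild type and 207, 260 and 207 FPKM in IK-KO. Its mRNA was thus higher in the edited cells, by 0.89 on the log2 scale (SE 0.12, limma adjusted p = 0.00295), the direction opposite to a loss of transcript. A gene-level FPKM does not show whether the reading frame was broken, and the label is used below only as a name. All 8 T-lineage markers, among them the CD3 chains, CD5 and CD7, were at or above 1 FPKM in every library. Their sum ran from 1077 to 1127 FPKM in wild type and from 1179 to 1343 FPKM in IK-KO, but the markers did not move together. CD3D, which carries much of the sum, averaged 490 ± 48.3 FPKM in wild type and 667 ± 90.5 FPKM in IK-KO (SD, n = 3). In group means, CD3G rose from 66.5 to 104.9 FPKM, GATA3 from 54.7 to 74.4 FPKM and BCL11B from 25.9 to 29.5 FPKM. These and CD3D were higher in every IK-KO library than in any wild type library, while CD3E overlapped. CD5, at 25.3 ± 1.11 and 11.7 ± 1.59 FPKM, CD7, at 15.8 ± 0.887 and 4.17 ± 0.960 FPKM, and TAL1, at 23.1 ± 1.75 and 12.3 ± 0.817 FPKM, were lower in every IK-KO library than in any wild type library (SD, n = 3). The part of such differences between the cells in the mitochondrial results was not tested. Of the other cell types, the 4 B-lineage markers reached at most 2.19 FPKM summed, the 4 myeloid markers at most 0.607, the 3 erythroid markers at most 0.0196 and the 2 markers of stroma and epithelium at most 0.120. HBB, ALAS2 and EPCAM were at 0 in every library.

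Mitochondrial DNA is transcribed from both strands into long precursors that run through many genes. Most mRNAs and both rRNAs are flanked by tRNAs, and enzymes that cut the tRNAs out release the transcripts between them. Short A tails are added to most of the mature mRNAs and to the rRNAs, so that these enter polyA libraries. Several stop codons are completed only by the tail. The rRNAs lie at the start of the heavy-strand precursor, and a binding site of the transcription termination factor MTERF1 lies in the tRNA gene just after them. Genes of the same precursor can therefore differ in level through processing and decay as well as through transcription. None of these genes has an intron.

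Several gene borders bear on the values, since reads across them belong to more than 1 gene. The following stretches of chrM are given on hg38 (GRCh38), plus strand, 5′ to 3′. In the first 3, capitals mark the bases that both genes share, namely 46, 1 and 7 bases. In the last, capitals mark the 75 bases of MT-TL1, a leucine tRNA that separates the large rRNA from MT-ND1 and holds the MTERF1 binding site.
MT-ATP8 and MT-ATP6, chrM:8515-8584: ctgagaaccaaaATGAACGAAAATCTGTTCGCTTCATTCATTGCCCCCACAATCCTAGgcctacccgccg
MT-ATP6 and MT-CO3, chrM:9195-9219: cgacaacacataAtgacccaccaat
MT-ND4L and MT-ND4, chrM:10748-10778: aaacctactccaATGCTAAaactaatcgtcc
MT-RNR2, MT-TL1 and MT-ND1, chrM:3218-3318: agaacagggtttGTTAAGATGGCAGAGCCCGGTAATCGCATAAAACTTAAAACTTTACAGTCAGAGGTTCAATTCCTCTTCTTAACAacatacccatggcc

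The ends of the reading frames show which messages lack a complete stop codon in the genome. Each line gives the last 15 bases of the gene in the direction of its transcript, with the last codon, or what the genome holds of it, in capitals. MT-ND6 is read from the minus strand.
MT-ND1: tccccctcaaaccTA
MT-ND2: tactaataatcttaT
MT-CO1: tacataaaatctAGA
MT-CO2: gtatttaccctaTAG
MT-ATP8: cccccacaatccTAG
MT-ATP6: cacgacaacacaTAA
MT-CO3: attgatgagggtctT
MT-ND3: tagactgaaccgaaT
MT-ND4L: ctactccaatgcTAA
MT-ND4: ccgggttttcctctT
MT-ND5: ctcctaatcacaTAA
MT-ND6: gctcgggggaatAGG
MT-CYB: tactcaaatgggccT
In 7 of the 13 genes the last codon was complete, and in 6 it was not: 5 ended in a lone T and MT-ND1 in TA. In these 6 messages a tail of A is needed to make the stop codon. The last codons of MT-CO1 and MT-ND6, AGA and AGG, are not read as arginine in human mitochondria.

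All 22 tRNA genes were listed at 0 FPKM in all 6 libraries. They are 59 to 75 bases long, and 14 lie on the plus strand and 8 on the minus strand. The shortest mitochondrial gene above 0 was MT-ATP8, with 207 bases. No mitochondrial row had a failed estimate in the status column, but a listed 0 over every tRNA is not evidence that these RNAs were missing from the cells. The remaining 15 genes, all mRNAs and rRNAs, were above 0 in every library and passed the filter of a mean of at least 1 FPKM. The text below concerns these 15.

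Mitochondrial transcripts made up a large part of the measured FPKM in both groups. Their share of the FPKM sum was 14.4%, 14.2% and 13.7% in wild type and 13.5%, 12.96% and 14.1% in IK-KO. The groups overlapped, with means of 14.1% ± 0.380 and 13.5% ± 0.582 (SD, n = 3), and the difference was not larger than the spread between libraries (exact permutation test, two-sided, p = 0.2, where 0.1 is the smallest p that 3 against 3 libraries allow). For the 13 mRNAs alone the share was 13.8%, 13.5% and 12.99% in wild type and 13.035%, 12.5% and 13.6% in IK-KO. Their means of 13.4% ± 0.389 and 13.04% ± 0.575 (SD, n = 3) did not differ beyond the spread either (exact permutation test, two-sided, p = 0.5). Weighting each gene by its length brings FPKM closer to a share of fragments. The mitochondrial share was then 5.18% ± 0.0960 in wild type and 4.85% ± 0.177 in IK-KO (SD, n = 3). On that scale the groups did not overlap (exact permutation test, two-sided, p = 0.1). The weighted share of the 13 mRNAs alone was 4.69% ± 0.106 and 4.49% ± 0.174 (SD, n = 3), with overlapping groups (exact permutation test, two-sided, p = 0.2). In bulk RNA, fewer mitochondria or fewer cells that hold them and less RNA per mitochondrion cannot be told apart.

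Among the 13 mRNAs, levels per length spanned from about 1180 to 15047 FPKM (means over the 6 libraries). The order from the top was MT-ATP8, MT-ND3, MT-CO2, MT-CO3, MT-CO1, MT-ATP6, MT-ND4L, MT-ND4, MT-CYB, MT-ND1, MT-ND2, MT-ND6 and MT-ND5. The lead of MT-ATP8 (mean 15047 FPKM) over MT-ND3 (13553 FPKM) was seen in 3 of 6 libraries, so these neighbours did not differ beyond their spread. MT-CO2, MT-CO3 and MT-CO1, the 3 mitochondrial subunits of cytochrome c oxidase, followed at 11916, 10587 and 9345 FPKM, and this order held in 6 of 6 libraries. MT-ATP6 (8589 FPKM) stood above MT-ND4L (7660 FPKM) in 5 of 6 libraries. MT-ND4 followed at 5619 FPKM. At the lower end, the order of MT-ND2 (3347 FPKM), MT-ND6 (1372 FPKM) and MT-ND5 (1180 FPKM) held in 6 of 6 libraries. MT-RNR2, the large-subunit rRNA, averaged 3713 FPKM and lay between MT-CYB (3760 FPKM) and MT-ND1 (3546 FPKM). MT-CYB exceeded it in 3 of 6 libraries and it exceeded MT-ND1 in 3 of 6. These splits followed the groups: MT-RNR2 lay above both mRNAs in every wild type library and below both in every IK-KO library. MT-RNR1, the small-subunit rRNA, was the lowest of the 15 at 526 FPKM, below MT-ND5 in 6 of 6 libraries. How well the polyA selection caught the short-tailed rRNAs is not known here, so their level relative to the mRNAs is not read as their abundance in the cells.

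**Figure D1:**
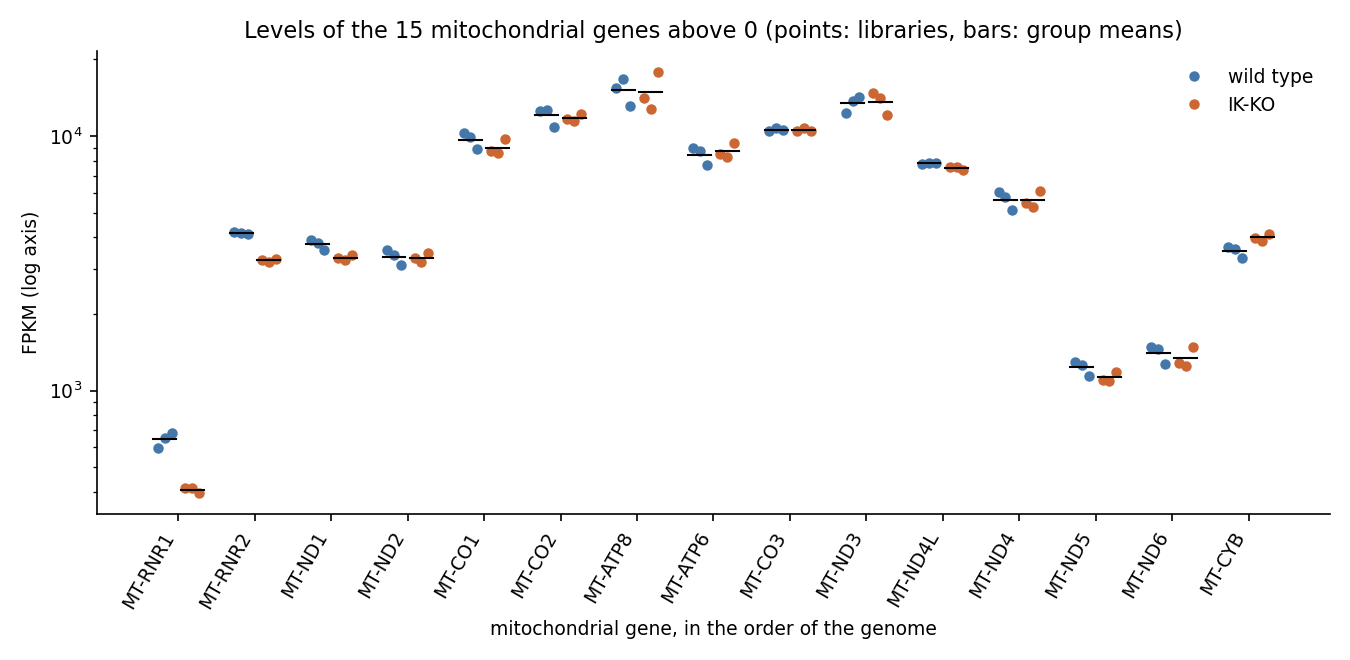
FPKM (log axis) of the 15 mitochondrial genes above 0 in the order of the genome, with 1 point per library and a bar at each group mean (wild type and IK-KO, n = 3 each). The groups separate at MT-RNR1 and MT-RNR2, where IK-KO is lower, and overlap for most mRNAs, while MT-ATP8 and MT-ND3 show the widest scatter of the most abundant mRNAs.

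The deposited confidence bounds show how precisely each value was estimated within a library. For MT-CO1 they corresponded to 213876 to 286893 fragments per library and a half-width of 0.373% to 0.432% of the value. For MT-RNR1 they corresponded to 5409 to 9651 fragments and a half-width of 2.04% to 2.72%. The 5 genes that share bases with a neighbour had wider bounds than these: 7.24% to 10.3% for MT-ATP8, 4.95% to 5.43% for MT-ND4L, and 4.15% to 4.21% for MT-ATP6, MT-CO3 and MT-ND4 together. For MT-ATP6, MT-CO3 and MT-ND4 the bounds implied between 2262 and 2318 fragments in every library, whatever the level. Implied fragments of genes that share bases are therefore not read as counts. The bounds cover the estimation in 1 library and not the difference between libraries.

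Of the 15 genes, 4 changed between the groups (limma on log2(FPKM + 1), Benjamini-Hochberg adjusted p under 0.05 over 12652 tested genes), and 19.9% of all tested genes passed the same rule. MT-RNR1, MT-RNR2 and MT-ND1 were lower and MT-CYB was higher in the group labelled IK-KO, where 9.75% of all tested genes were called lower and 10.1% higher. Scaled to the sum outside chrM, 3 were called, all lower, since MT-CYB no longer passed. The groups did not overlap for 5 of the 15, these 4 and MT-ND4L, against 39.0% of all tested genes. The number of calls is thus close to the background and says nothing particular about mitochondrial genes as a set. The median log2 change was -0.03 over the 15 genes and -0.02 over the 13 mRNAs, beside 0.02 over all tested genes.

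Both rRNAs fell, and the small-subunit rRNA fell further. MT-RNR1 (ENSG00000211459.2, chrM:648-1601, plus strand) measured 597, 653 and 683 FPKM in wild type and 416, 413 and 397 FPKM in IK-KO. All 3 IK-KO libraries lay below all 3 wild type libraries, and the gap between the groups was wider than the range within either. The means were 644 ± 43.5 and 409 ± 10.4 FPKM (SD, n = 3), a ratio of 0.634, and the log2 change was -0.65 (SE 0.06, limma adjusted p = 0.000489). MT-RNR2 (ENSG00000210082.2, chrM:1671-3229, plus strand) measured 4214, 4174 and 4129 FPKM in wild type and 3270, 3204 and 3285 FPKM in IK-KO. The libraries of each group lay within a narrow band, with means of 4173 ± 42.5 and 3253 ± 42.9 FPKM (SD, n = 3). The ratio was 0.780 and the log2 change -0.36 (SE 0.04, limma adjusted p = 0.000793). The call of MT-RNR1 held under 17 of 17 alternative settings and that of MT-RNR2 under 16 of 17.

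The fall of the rRNAs was also present relative to the mRNAs of the same library, a comparison free of scaling between libraries. The log2 ratio of the rRNA sum to the sum of the 13 mRNAs was -4.35, -4.37 and -4.24 in wild type and -4.68, -4.66 and -4.75 in IK-KO. The groups were separate, and the mean difference of -0.38 corresponds to 0.770 of the wild type ratio (exact permutation test, two-sided, p = 0.1, the smallest possible). The mRNA sum itself was 97820, 99752 and 90859 FPKM in wild type and 94309, 91522 and 98854 FPKM in IK-KO, with overlapping groups. Scaled to this sum, MT-RNR1 changed by -0.64 (limma adjusted p = 0.00327) and MT-RNR2 by -0.34 (limma adjusted p = 0.00465) on the log2 scale. The rRNAs did not change equally: the ratio of MT-RNR1 to MT-RNR2 was 0.142, 0.156 and 0.165 in wild type and 0.127, 0.129 and 0.121 in IK-KO, without overlap (exact permutation test, two-sided, p = 0.1). In wild type this ratio differed more between libraries than in IK-KO, since MT-RNR1 was highest and MT-RNR2 lowest in replicate 3.

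**Figure D2:**
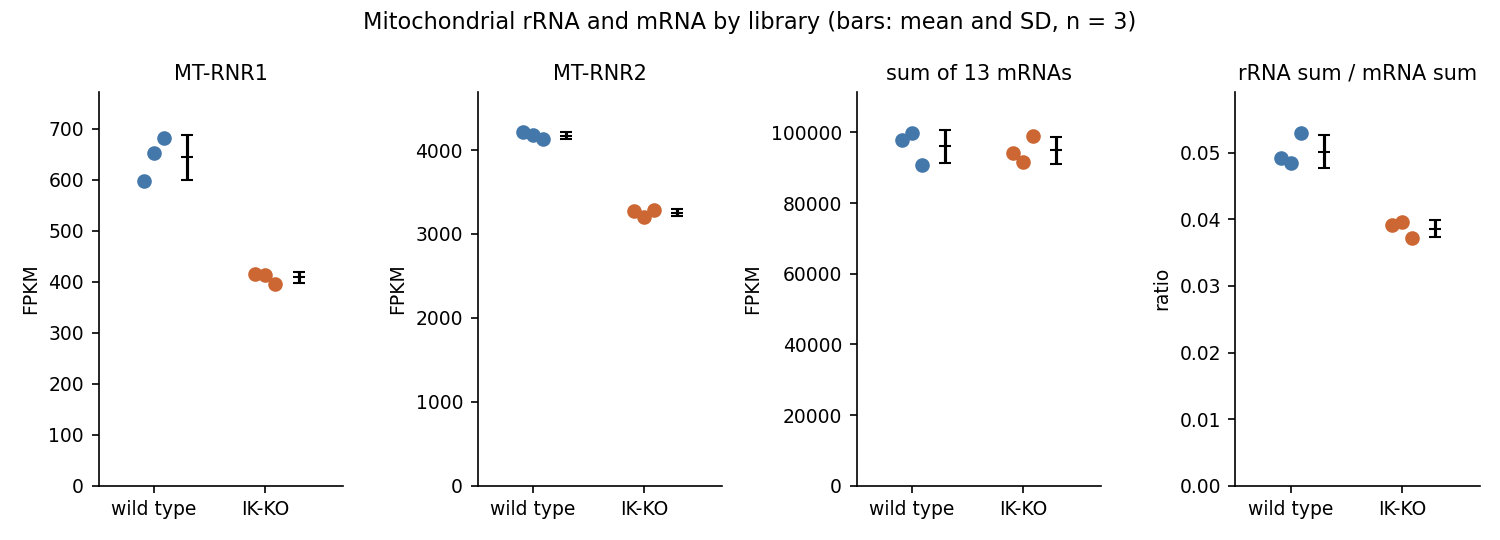
FPKM of MT-RNR1, MT-RNR2 and the sum of the 13 mRNAs, and the ratio of the rRNA sum to the mRNA sum, with 1 point per library and the mean with its SD at the side (n = 3 each, axes from 0). IK-KO lies below wild type without overlap in both rRNA panels and in the ratio, while the mRNA sums of the groups overlap.

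RNAs that carry no long A tail differed between libraries as well, which bears on the rRNAs because their capture rests on short tails. RN7SL1, the RNA of the signal recognition particle, measured 908, 88.8 and 3416 FPKM in wild type and 74.1, 100.1 and 112 FPKM in IK-KO. Its near-identical copy RN7SL2 measured 581, 95.2 and 2409 FPKM in wild type and 128, 112 and 85.2 FPKM in IK-KO. In RN7SL1 and RN7SL2, wild type replicates 1 and 3 thus stood apart, and replicate 2 was at the level of the IK-KO libraries. The list of 4 such RNAs, chosen after their values were seen, summed to between 209 and 5964 FPKM in wild type and between 237 and 275 FPKM in IK-KO, with none of the 4 at 0 in every library. RN7SK, also in the list, measured 49.3, 25.2 and 80.5 FPKM in wild type and 52.0, 54.5 and 37.5 FPKM in IK-KO. RPPH1 measured 4.04, 0 and 58.4 FPKM against 11.4, 9.10 and 2.90 FPKM. In RN7SK and RPPH1 wild type replicate 3 was the highest library and replicate 2 the lowest, while replicate 1 lay within the IK-KO range. Wild type replicate 2, at 653 FPKM of MT-RNR1 and 4174 FPKM of MT-RNR2, was as high in both rRNAs as the other wild type libraries. Without wild type replicates 1 and 3, MT-RNR1 changed by -0.67 (limma adjusted p = 0.0241) and MT-RNR2 by -0.36 (limma adjusted p = 0.0708), so the call of MT-RNR2 was lost with its size kept. In that fit the lone wild type library is assumed to vary like the IK-KO libraries. The nuclear-retained RNAs MALAT1 and NEAT1 differed in opposite directions: MALAT1 measured 39.0, 36.6 and 39.6 FPKM in wild type and 27.0, 30.7 and 33.4 in IK-KO, and NEAT1 11.9, 10.7 and 11.9 against 15.3, 19.7 and 15.7. The part of these RNAs in the rRNA result was not tested, and a fit with a lone wild type library cannot decide it.

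Complex I, NADH dehydrogenase, takes 7 subunits from the mitochondrial genome, and of their mRNAs MT-ND1 alone passed the test. MT-ND1 (ENSG00000198888.2, chrM:3307-4262, plus strand) measured 3908, 3816 and 3573 FPKM in wild type and 3310, 3270 and 3398 FPKM in IK-KO. The groups did not overlap, but the lowest wild type and the highest IK-KO library were close. The means were 3766 ± 173 and 3326 ± 65.2 FPKM (SD, n = 3), a ratio of 0.883, and the log2 change was -0.18 with an SE of 0.05 (limma adjusted p = 0.0363). This call held under 7 of 17 alternatives, with adjusted p from 0.0111 to 0.217 over all 17. MT-ND2 (chrM:4470-5511) measured 3568, 3402 and 3116 FPKM in wild type and 3305, 3211 and 3477 FPKM in IK-KO, and the groups overlapped. MT-ND3 (chrM:10059-10404), one of the most abundant messages per length, measured 12359, 13727 and 14299 FPKM against 14783, 14076 and 12072 FPKM. It was high in some libraries of each group and low in others.

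MT-ND4L (chrM:10470-10766), which shares 7 bases with MT-ND4, measured 7786, 7862 and 7848 FPKM in wild type and 7550, 7575 and 7337 FPKM in IK-KO. The groups did not overlap, but the difference of -0.07 on the log2 scale (SE 0.04) did not pass the test (limma adjusted p = 0.266). MT-ND4 (chrM:10760-12137) measured 6041, 5743 and 5110 FPKM in wild type and 5458, 5271 and 6090 FPKM in IK-KO. The groups overlapped, although both frames lie on the same mRNA. MT-ND5 (chrM:12337-14148) measured 1294, 1262 and 1146 FPKM against 1103, 1091 and 1186 FPKM, a log2 difference of -0.13 (SE 0.06, limma adjusted p = 0.181), the largest among the mRNAs that did not pass. MT-ND6 (chrM:14149-14673), the 1 mRNA on the minus strand, measured 1482, 1458 and 1272 FPKM against 1282, 1253 and 1483 FPKM. Its groups overlapped, and because the strand setting of the counting is not given in the sources used here, its reads cannot be told apart from antisense RNA of the plus-strand precursor.

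MT-CYB, the 1 mitochondrial subunit of complex III (cytochrome bc1), changed in the opposite direction from MT-ND1. MT-CYB (ENSG00000198727.2, chrM:14747-15887, plus strand) measured 3657, 3585 and 3326 FPKM in wild type and 3987, 3865 and 4141 FPKM in IK-KO. All 3 IK-KO libraries lay above all 3 wild type libraries. The means were 3523 ± 174 and 3997 ± 138 FPKM (SD, n = 3), a ratio of 1.13, and the log2 change was 0.18 with an SE of 0.05 (limma adjusted p = 0.0454). The call held under 6 of 17 alternatives and was lost whichever single library was left out, with adjusted p from 0.0163 to 0.3004 over all 17. Within a library, MT-CYB and MT-ND1 separated the groups more sharply than either did alone. The ratio of MT-CYB to MT-ND1 was 0.936, 0.939 and 0.931 in wild type and 1.20, 1.18 and 1.22 in IK-KO, with means of 0.935 ± 0.00425 and 1.20 ± 0.0185 (SD, n = 3). This ratio was chosen after its values were seen, and the exact permutation test (two-sided) gave p = 0.1, the smallest possible. MT-ND1 lies near the start and MT-CYB near the end of the plus-strand genes. Their neighbours among the plus-strand mRNAs, MT-ND2 and MT-ND5, differed by -0.01 and -0.13 on the log2 scale and were not called. Whether position bears on the ratio was not tested.

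Complex IV, cytochrome c oxidase, showed no change that passed the test. MT-CO1 (chrM:5904-7445) measured 10262, 9887 and 8878 FPKM in wild type and 8778, 8556 and 9708 FPKM in IK-KO, with overlapping groups. MT-CO2 (chrM:7586-8269) measured 12544, 12720 and 10901 FPKM against 11638, 11452 and 12239 FPKM. MT-CO3 (chrM:9207-9990) measured 10484, 10772 and 10587 FPKM against 10430, 10799 and 10448 FPKM. MT-CO3 was the steadiest of the 15 genes, with a coefficient of variation of 1.55% over the 6 libraries, next to 5.90% for MT-CO2 and 7.46% for MT-CO1. Its deposited bounds, at 4.16% to 4.17%, were wider than this spread.

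The ATP synthase messages MT-ATP8 and MT-ATP6, which lie on 1 bicistronic mRNA, did not pass the test either. MT-ATP8 (chrM:8366-8572) measured 15489, 16798 and 13088 FPKM in wild type and 14179, 12837 and 17892 FPKM in IK-KO. Its coefficient of variation over the 6 libraries, 13.6%, was as large as that of MT-RNR2, but for MT-ATP8 the spread lay within the groups and for MT-RNR2 between them. MT-ATP6 (chrM:8527-9207) measured 8945, 8720 and 7715 FPKM against 8504, 8266 and 9382 FPKM. The ratio of MT-ATP8 to MT-ATP6 was 1.73, 1.93 and 1.696 in wild type and 1.67, 1.55 and 1.91 in IK-KO, so that 2 reading frames of 1 message differed in FPKM in every library. The ratio of MT-ND4L to MT-ND4, the other bicistronic mRNA, was 1.29, 1.37 and 1.54 in wild type and 1.38, 1.44 and 1.20 in IK-KO. In both pairs the shorter frame had the higher FPKM, and the length correction of short genes was not tested.

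**Figure D3:**
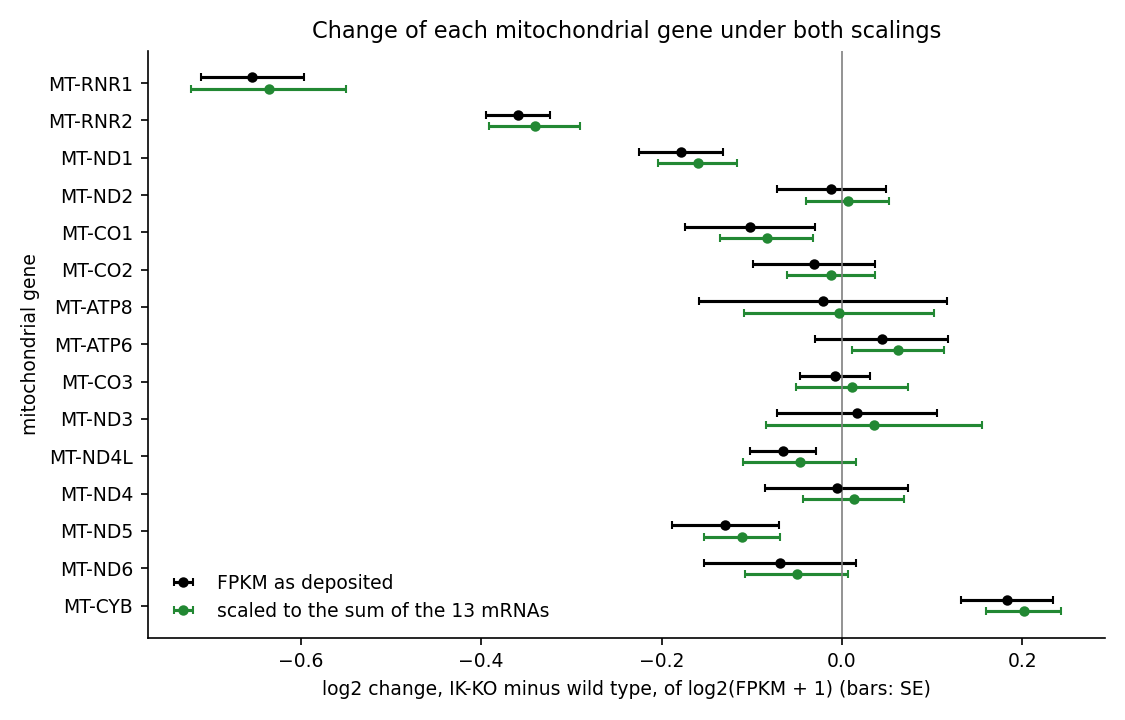
Log2 change (IK-KO minus wild type, of log2(FPKM + 1), with its SE as bars) of the 15 mitochondrial genes in the order of the genome, for FPKM as deposited and after scaling each library to the sum of its 13 mRNAs. MT-RNR1 at -0.65 and MT-RNR2 at -0.36 lie farthest from 0 under both scalings. As deposited, MT-CYB at 0.18 and MT-ND1 at -0.18 lie about equally far from 0 on opposite sides, and the other mRNAs lie within 0.13 of it.

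Of the 13 mRNAs, 11 did not pass the test, with adjusted p from 0.181 to 0.972 and differences of at most 0.13 on the log2 scale. In sign, 10 of the 13 were lower and 3 higher in IK-KO, but most differences were near 0, and after scaling to the sum of the 13 mRNAs 7 were lower and 6 higher. The spread between libraries was small: the median residual SD was 0.094 for the mRNAs and 0.129 for all tested genes on the log2 scale. After scaling to the mRNA sum, the called genes were again MT-RNR1, MT-RNR2, MT-ND1 (-0.16, limma adjusted p = 0.0431) and MT-CYB (0.20, limma adjusted p = 0.0163). By respiratory complex, the share of the mRNA sum was 38.2% ± 1.57 in wild type and 37.8% ± 2.07 in IK-KO for complex I, 33.6% ± 0.342 and 33.0% ± 0.533 for complex IV, and 24.5% ± 1.41 and 24.9% ± 2.38 for ATP synthase (SD, n = 3), all overlapping. The share of complex III, which is MT-CYB alone, was 3.66% ± 0.0721 and 4.21% ± 0.0211 (SD, n = 3), without overlap.

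The scatter within the groups was shared by most mRNAs. In 10 of the 13 the lowest wild type library was replicate 3 and the highest IK-KO library was replicate 3, and these were the same 10 genes. The 3 exceptions were MT-CO3, MT-ND3 and MT-ND4L. MT-ND3 was highest in wild type replicate 3 and lowest in IK-KO replicate 3 of their groups, the reverse of MT-ATP8, and the ratio of MT-ATP8 to MT-ND3 was 1.25, 1.22 and 0.915 in wild type and 0.959, 0.912 and 1.48 in IK-KO. Relative depth, as judged from the bounds, followed this scatter only in part. In the wild type libraries 1 FPKM over 1 kilobase stood for 17.5, 18.4 and 16.2 fragments. In the IK-KO libraries it stood for 15.8, 18.03 and 19.2. Wild type replicate 3 was the shallowest of its group and IK-KO replicate 3 the deepest of its own. IK-KO replicate 1 was shallower than replicate 2, but its mRNA sum was higher, at 94309 against 91522 FPKM. The part of depth in the scatter was not tested.

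**Figure D4:**
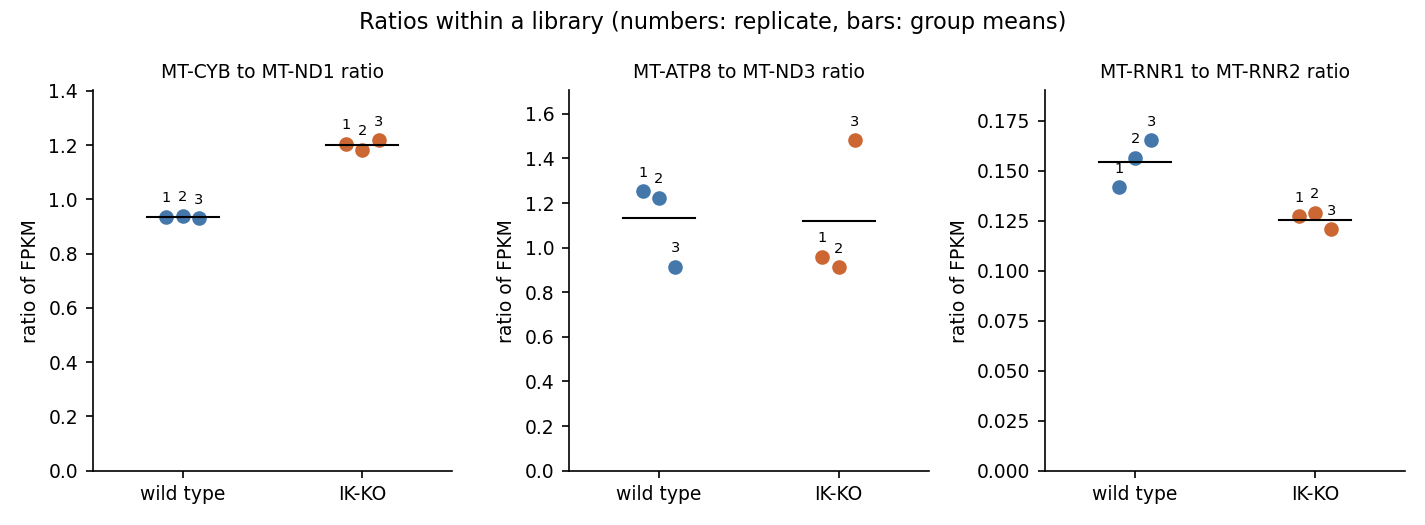
Ratios of FPKM within each library (axes from 0, points numbered by replicate, bars at group means): MT-CYB to MT-ND1, MT-ATP8 to MT-ND3, and MT-RNR1 to MT-RNR2. The first rises from about 0.935 to 1.20 without overlap, the second overlaps with IK-KO replicate 3 highest at 1.48, and the third is lower in every IK-KO library.

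Copies of mitochondrial DNA in the nuclear genome can take up reads of the mitochondrial transcripts. Of 407 such copies named in the tables, 344 were at 0 in all 6 libraries and 63 were above 0 in any. Together the copies held 0.633% to 0.837% of the FPKM sum. The highest was MTND1P23 (chr1:629062-629433), in a block of chromosome 1 that holds 7 copies. Over 353 aligned bases it had 3 mismatches to MT-ND1, an identity of 99.2%. A window of both is shown here because reads that fall between mismatches fit both places equally well, and capitals mark the 2 bases that differ.
MT-ND1, chrM:4005-4104: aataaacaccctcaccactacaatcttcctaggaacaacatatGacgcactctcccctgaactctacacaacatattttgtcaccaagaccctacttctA
MTND1P23, chr1:629175-629274: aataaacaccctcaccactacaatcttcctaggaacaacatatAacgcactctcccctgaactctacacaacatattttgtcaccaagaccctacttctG
MTND1P23 reached 4023, 3862 and 3327 FPKM in wild type and 3301, 3463 and 4435 FPKM in IK-KO, between 0.931 and 1.31 of the level of MT-ND1. Its groups overlapped (limma adjusted p = 0.969). How the estimation divided reads between the copy and the gene is not given in the sources used here, so the value of MT-ND1 is uncertain to this extent. When the 7 copies of the block were added to their genes, MT-ND1 changed by -0.13 on the log2 scale and was no longer called (limma adjusted p = 0.217).

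Among the other copies, MTATP6P1 measured 886, 811 and 673 FPKM in wild type and 794, 876 and 1068 FPKM in IK-KO. MTND2P28 measured 263, 241 and 221 FPKM against 243, 252 and 286 FPKM. MTCO1P12 measured 195, 182 and 177 FPKM against 164, 155 and 158 FPKM. MTCO1P12 was the 1 called copy of 13 tested, lower in IK-KO (log2 change -0.21, limma adjusted p = 0.0270), while MT-CO1 itself was not called (-0.10, limma adjusted p = 0.377). The fifth copy by mean level, MTCO2P2, stood at 0 (as listed), 68.3 and 125 FPKM in wild type and 13.5, 58.1 and 50.3 FPKM in IK-KO, a scatter beyond that of MT-CO2. The copies of the rRNA genes were low, the highest being MTRNR2L12 with a mean of 3.48 FPKM.

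The nuclear genome supplies all proteins that make and read these transcripts. Of 59 such genes in a list of mitochondrial expression, 3 changed, 1 higher and 2 lower, with a median log2 change of -0.02 beside 0.02 over all tested genes. With median-of-ratios scaling 5 changed, 1 higher and 4 lower. Against 19.9% of all tested genes this share was low, and the difference was not tested. None of the 8 transcription genes was called. POLRMT, the mitochondrial RNA polymerase, measured 29.1 ± 0.131 FPKM in wild type and 30.1 ± 2.23 FPKM in IK-KO (SD, n = 3; limma adjusted p = 0.709). TFAM, which packages mitochondrial DNA and starts transcription, measured 32.3 ± 2.39 and 33.1 ± 2.57 FPKM (SD, n = 3; limma adjusted p = 0.819). The initiation factor TFB2M differed by 0.12 (adjusted p = 0.417), and the termination factor MTERF1, named outside the rule because its site lies behind the rRNAs, by 0.05 (adjusted p = 0.832) on the log2 scale. The elongation factor TEFM differed by -0.34 (SE 0.11), with a limma adjusted p of 0.0754.

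The genes that stabilise and tail the mRNAs did not pass the test. LRPPRC and SLIRP, partners in a complex that protects the mRNAs, differed by 0.18 (adjusted p = 0.411) and 0.16 (adjusted p = 0.0851) on the log2 scale. MTPAP, the polymerase that adds the A tails, measured 13.4 ± 2.69 FPKM in wild type and 10.8 ± 1.147 FPKM in IK-KO (SD, n = 3), a log2 difference of -0.28 (adjusted p = 0.252). GRSF1, an RNA-binding protein of the mitochondrial RNA granules, differed by -0.06 (adjusted p = 0.471). In the same fit, none of the 7 genes of rRNA modification, 7 of tRNA and transcript processing, 9 of the FASTK family and RNA granules and 3 of RNA decay was called.

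The 3 called genes belong to translation and to the upkeep of mitochondrial DNA. MRRF, the recycling factor of the mitochondrial ribosome, measured 30.9, 32.2 and 29.0 FPKM in wild type and 22.5, 23.5 and 23.5 FPKM in IK-KO, and the log2 change was -0.39 with an SE of 0.06 (limma adjusted p = 0.00581). MRRF lies on chromosome 9, where the median change over 469 tested genes was -0.35, so its fall was close to that of its chromosome. POLG2, the accessory subunit of the mitochondrial DNA polymerase, measured 21.0, 19.5 and 16.8 FPKM against 15.985, 13.7 and 14.1 FPKM, and the log2 change was -0.36 with an SE of 0.10 (limma adjusted p = 0.0462). TK2, the mitochondrial thymidine kinase that supplies nucleotides for mitochondrial DNA, rose from 3.56, 3.40 and 3.40 FPKM to 4.87, 5.72 and 5.24 FPKM, and the log2 change was 0.49 with an SE of 0.10 (limma adjusted p = 0.0161). The call of TK2 was lost without wild type replicate 2 (limma adjusted p = 0.0540), IK-KO replicate 2 (0.0609) or IK-KO replicate 3 (0.0514), and that of POLG2 without any single library other than wild type replicate 3 (0.0550 to 0.136). That of MRRF held whichever single library was left out. Without wild type replicates 1 and 3 none of the 3 was called. POLG2 and TK2 lie on chromosomes 17 and 16, whose medians were -0.01 and 0.03.

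**Figure D5:**
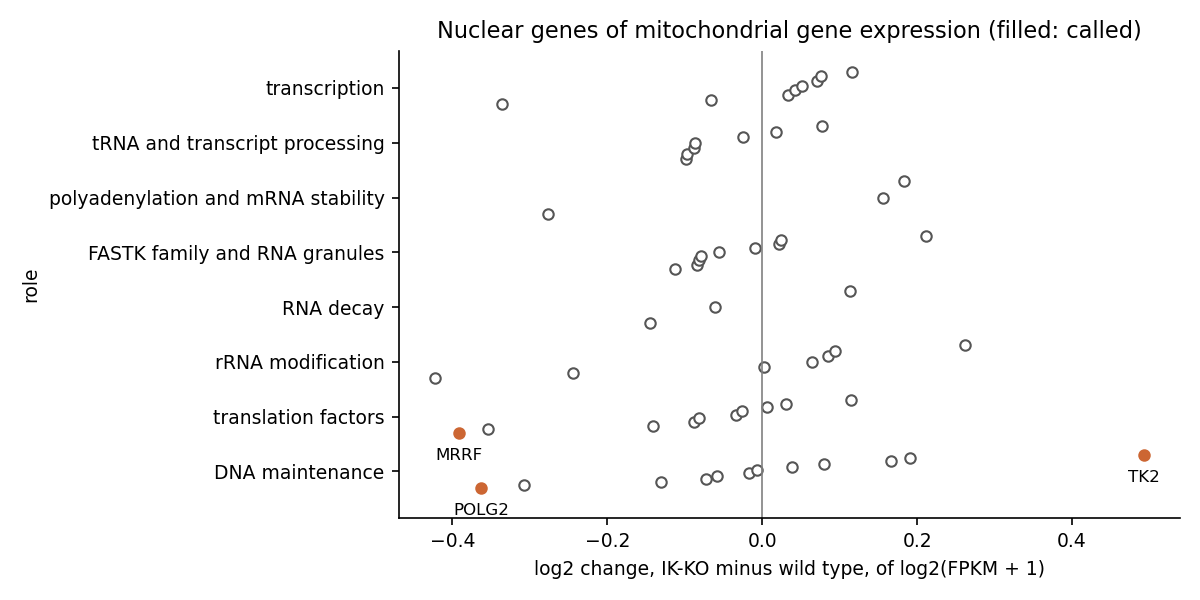
Log2 change (IK-KO minus wild type, of log2(FPKM + 1)) of the 59 nuclear genes of mitochondrial gene expression, 1 point per gene, in rows by role, with genes that passed the test filled and named. The 3 filled genes are MRRF at -0.39, POLG2 at -0.36 and TK2 at 0.49, and the transcription row holds none.

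The proteins of the mitochondrial ribosome, which is built on the 2 rRNAs, are also nuclear. Of 78 tested genes named MRPL or MRPS, 12 (15.4%) were called against 19.9% of all tested genes, 6 higher and 6 lower, and their median log2 change was -0.00. MRPL41, of the large subunit, fell the most, from 68.4 ± 3.86 to 24.6 ± 1.69 FPKM (SD, n = 3), and the log2 change was -1.44 with an SE of 0.07 (limma adjusted p = 6.2e-05), which exceeds the median of its chromosome 9. MRPL50, on the same chromosome, fell by 0.32 on the log2 scale (limma adjusted p = 0.0445), close to the chromosome's median, and its call was lost whichever single library was left out. MRPS18B and MRPL2 rose the most, by 0.51 (limma adjusted p = 0.00992) and 0.36 (limma adjusted p = 0.00816). Both lie on chromosome 6, where the median over 655 tested genes was 0.21. So do MRPL14 and MRPS18A, also called higher, by 0.28 and 0.23 on the log2 scale. The remaining higher calls, MRPL32 and MRPS14, lie on chromosomes 7 and 1. The equal split was not kept under every setting. Scaled to the sum outside chrM, 19 were called, 6 higher and 13 lower. With quantile normalization 18 were called, 6 higher and 12 lower, and with median-of-ratios scaling 18, 8 higher and 10 lower. Some fits without a single library were uneven as well. There were 5 higher and 2 lower without IK-KO replicate 3, and 4 higher and 6 lower without wild type replicate 3.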

How the data were processed

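PolyA RNA of 6 MOLT-4 libraries (3 wild type, 3 IK-KO, grouped and numbered from the titles) was prepared with a NEBNext Ultra II RNA kit. The authors deposited 1 table of gene FPKM per library, in the layout of Cufflinks, already scaled for length and depth. The submitters' processing notes name STAR 2.6.1c, Cufflinks 2.2.1, HOMER 4.10 and hg38. The annotation and the strand setting are not given in the sources used here. The study's methods describe counts of mouse reads for RNA-seq, which these tables do not hold.

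Each table had 60752 rows, and rows of 1 identifier were summed. Genes with a failed estimate in any library (29 rows, none on chrM) were left out. Changes were tested with limma 3.58.1 in R 4.3.3 on log2(FPKM + 1), with a mean-variance trend, two-sided, over the 12652 genes with a mean of at least 1 FPKM, with Benjamini-Hochberg adjustment over all of them and calls at an adjusted p under 0.05. Fold changes on this scale are understated for low genes. Shares and ratios were compared with exact permutation tests over libraries. Fragments were implied from the confidence bounds, taking a half-width as 2 SD. For genes that share bases with a neighbour the implied numbers are not read as counts. The bounds leave out the difference between libraries. Whole reads could not be recovered for all genes, so no count test was run. On simulated data of 12652 genes with 200 changed, the fit called 80.5% of genes changed by 1 on the log2 scale. It called 24.0% at 0.5 and 0% at 0.3. In the real data 2515 genes were called, among them MT-ND1 at -0.18, so these rates need not hold there. Small changes can still be missed.

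Sequences were read from GRCh38, and all 37 positions matched GENCODE 44. Coordinates count from 1. Members and gene lists were chosen with earlier results of these data known. All mRNAs and rRNAs are named, with IKZF1, the 5 most abundant nuclear copies, 8 expression genes whatever their values, the called genes of that list (at most 6), and the 2 largest called rises and falls among ribosomal proteins. Other genes were named after their values were seen. Alternatives were the pseudocount, the filter, the scaling, the trend, the replicate block and single libraries left out.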

Additional observations from a re-analysis of the deposited data

How the results depend on the processing

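With 3 libraries a group, small changes can be missed. Deposited bounds limit the genes that share bases with a neighbour. The bounds of MT-ATP8 implied 377 to 763 fragments, and those of MT-CO3 exceeded its spread between libraries. Over all genes, 2515 were called, 1805 with the replicate block, 1692 to 2004 when single libraries were left out and 454 without wild type replicates 1 and 3. Of the 15 mitochondrial genes, 4 were called. The number was 2 with no filter, without the trend and with the replicate block, 2 to 3 when single libraries were left out, and 1 (MT-RNR1) without wild type replicates 1 and 3. Leaving out single libraries kept both rRNAs called (adjusted p at most 0.00442 for MT-RNR1 and 0.00924 for MT-RNR2), kept MT-ND1 only without wild type replicate 3 and kept MT-CYB in none (adjusted p from 0.0770 to 0.141). The fit without wild type replicates 1 and 3, the sums with nuclear copies added, the failed estimates kept and the share without failed rows were chosen after seeing the data. The labels do not state any pairing of the samples, and same-numbered libraries correlated by 0.0669, 0.0248 and 0.00546. Without values of differently numbered libraries beside them, these do not show whether the replicate numbers pair the samples. With the numbers as a block MT-ND1 (adjusted p = 0.0880) and MT-CYB (adjusted p = 0.105) were not called, nor was TK2 (adjusted p = 0.0529), the 1 higher call of the expression list, or MRPL50.

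The rRNA to mRNA log2 ratio differed by -0.38 and ranged from -0.40 to -0.34 when single libraries were left out. It was -0.33 without wild type replicates 1 and 3, and in pairs by replicate number, the block, the exact permutation p was 0.25, the smallest possible. The mitochondrial share differed by -0.84 to -0.26 percentage points and the mRNA share by -0.67 to -0.09 when single libraries were left out. The expression list had 3 calls, 5 with median-of-ratios scaling, 1 to 3 when single libraries were left out and 0 without wild type replicates 1 and 3. The ribosomal protein genes had 12 calls, 19 when scaled to the sum outside chrM, 6 with the block, 6 to 10 when single libraries were left out and 1 without wild type replicates 1 and 3. Fewer libraries enter the fits that leave libraries out. The cause of the other shifts was not tested. The planned edgeR test on recovered counts was not run.

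Signs turned only for genes that were not called. With scaling to the 13 mRNAs, MT-ND2 was at 0.0066, MT-CO3 at 0.011 and MT-ND4 at 0.013. With quantile scaling MT-ND2 was at 0.0095. MT-ND3 was at -0.016 when scaled to the sum outside chrM and at -0.00083 with median-of-ratios scaling. Without wild type replicates 1 and 3, MT-ATP6 was at -0.0025, MT-ND3 at -0.014 and TFAM at -0.0698. When single libraries were left out, the log2 change ran from -0.0655 to 0.0321 for MT-ND2, -0.102 to 0.0096 for MT-CO2, -0.157 to 0.0823 for MT-ATP8, -0.0210 to 0.0857 for MT-ATP6, -0.0239 to 0.0031 for MT-CO3, -0.0438 to 0.102 for MT-ND3, -0.0739 to 0.0468 for MT-ND4, -0.0158 to 0.0751 for POLRMT, -0.0265 to 0.0857 for TFAM and -0.0294 to 0.206 for MTERF1. The median change of all tested genes stayed between -0.01 and 0.03 under every scaling tried.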
